A study of Mus musculus with 48 samples.

Results

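The genes described here are the 6 that make, load or retrieve dopamine and histamine and that were named for this purpose: *Th*, *Ddc*, *Slc6a3*, *Slc18a2*, *Gch1* and *Hdc*. All 6 had a row among the 16510 genes of the count table. They were chosen by name, not by their values. The table held 14121 single cells from the mouse hypothalamus at E18.5, the last days before birth, sequenced by droplet-based scRNA-seq in which each RNA molecule carries a unique molecular identifier (UMI). There were 22 libraries from 6 control embryos (*Eed fl/fl*, without Cre) and 26 libraries from 9 *Eed-cKO* embryos (*Eed fl/fl;Sox1-Cre/+*). Both groups held female and male embryos, with more males than females in control and more females than males in *Eed-cKO*. The main tests did not use sex as a term. All embryos carried 2 floxed *Eed* alleles on a mixed B6 and 129S1 background. *Eed* encodes a subunit of PRC2, the complex that places the repressive histone mark H3K27me3, and *Sox1-Cre* deletes it in neural cells of the CNS from an early stage, so that vessel, meningeal and blood-derived cells of the same embryos are not expected to be deleted. Each hypothalamus was cut into pieces before the cells were separated, and the libraries of 1 embryo were summed.

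Dopamine neurons convert tyrosine to L-DOPA with tyrosine hydroxylase (*Th*), which needs the cofactor tetrahydrobiopterin, and then to dopamine with aromatic L-amino acid decarboxylase (*Ddc*). GTP cyclohydrolase (*Gch1*) starts the synthesis of that cofactor, the vesicular monoamine transporter (*Slc18a2*, VMAT2) loads dopamine, histamine and serotonin into vesicles, and the dopamine transporter (*Slc6a3*, DAT) takes released dopamine back into the cell. Histidine decarboxylase (*Hdc*) makes histamine, which in the brain comes from neurons of the tuberomammillary nucleus in the posterior hypothalamus, and outside neurons from mast cells. *Ddc* is also known outside the nervous system, where it is transcribed from a different first exon than in neurons.

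The genes lie on 6 chromosomes of GRCm38 in the GENCODE annotation: *Th* at chr7:142892752-142931128, *Ddc* at chr11:11814101-11898144, *Slc6a3* at chr13:73536747-73578672, *Slc18a2* at chr19:59260896-59296012, *Gch1* at chr14:47153895-47189413 and *Hdc* at chr2:126593667-126619299. Exons of *Slc18a2* overlap those of a gene on the opposite strand, *Gm29261*, and whether the counting used strand is not given in the sources used here, so that reads of the pair cannot be told apart. The promoter letters of *Th* and *Ddc* are shown because *Th* and *Ddc* sit at consecutive steps of the pathway and because *Ddc* has 2 annotated starts, 7736 bases apart. Each stretch is the 120 bases before an annotated start in RefSeq (GRCm38.p6, minus strand), read 5′ to 3′ along the gene, and capitals mark a match to 1 of 2 motifs searched on both strands of the 250 bases before each start. The motifs were the cAMP response element TGACGTCA and the orphan nuclear receptor site AAAGGTCA, which reads TGACCTTT on the other strand.
*Th*, chr7:142899996-142900115: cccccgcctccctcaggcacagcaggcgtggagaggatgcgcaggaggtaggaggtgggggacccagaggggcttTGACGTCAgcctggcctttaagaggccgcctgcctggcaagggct
*Ddc*, upstream start, chr11:11898145-11898264: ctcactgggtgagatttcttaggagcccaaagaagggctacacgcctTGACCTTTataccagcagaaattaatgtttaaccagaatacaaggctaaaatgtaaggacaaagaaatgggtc
*Ddc*, downstream start, chr11:11890409-11890528: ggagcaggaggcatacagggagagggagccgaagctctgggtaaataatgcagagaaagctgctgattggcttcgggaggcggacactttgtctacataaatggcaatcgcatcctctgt
The match in *Th* began at position -45 from the start and that in the upstream *Ddc* promoter at -73. Among 32817 promoters of the same length, 1.55% held the first motif and 1.34% the second. None of the other 5 promoters of the 6 genes, the downstream one of *Ddc* included, held either set of letters in this window, which says nothing of the factors. The deposited counts are summed per gene and do not separate the 2 *Ddc* starts.

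Control embryos contributed 1042 to 1664 cells and 5363119 to 7487417 UMIs each, and *Eed-cKO* embryos 217 to 1111 cells and 658175 to 6299181 UMIs. A single control library held 1207 cells at a median of 2919 UMIs, and 101 of 14019 distinct cell barcodes occurred in more than 1 library. *Eed* itself was read at 28.7 to 33.0 CPM (its UMIs scaled to a fixed total per embryo) in neural cells of control embryos and at 19.5 to 27.9 CPM in *Eed-cKO* embryos. The log2 fold change of *Eed* was -0.45 (SE 0.085), and the groups did not overlap. These libraries count the 3′ end of transcripts, outside the deleted part, so the level is no direct check of the deletion. The cells were clustered without the 6 genes, and clusters were named from markers. Of 13293 neural cells (6839 control, 6454 *Eed-cKO*), 11140 were neuron-like, 1108 astrocyte-like, 342 cycling progenitor-like and 86 ependymal-like, and 617 of low depth or mixed markers stayed unnamed. A further 828 cells (347 control, 481 *Eed-cKO*) were non-neural. The number that leads a library's name may be a litter, of which there would be 4 for control and 6 for *Eed-cKO* with none shared, so litter and genotype cannot be told apart.

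Of the dopamine genes, 4 were lower in *Eed-cKO* neural cells, and the histamine gene did not pass the test. The UMIs of each embryo's neural cells were summed, and the groups were compared with the edgeR quasi-likelihood test with Benjamini-Hochberg adjustment over all genes tested. *Th*, *Ddc* and *Slc18a2* passed the test with lower levels, as did *Slc6a3* in a fit with a looser filter, while *Gch1* and *Hdc* did not pass. For reading these counts, 27.7% of the 12545 genes tested passed the threshold, 12.4% with a lower level in *Eed-cKO*. With the looser filter, which *Slc6a3* needed because its median level lay under the limit, the share was 25.9% of 15773 genes, 11.6% lower. A sum over cells cannot separate fewer expressing cells from less RNA in each.

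*Th* was at 11.8 CPM in the lowest control embryo, a median of 18.6 and 49.9 in the highest, against 2.46, 10.3 and 15.7 CPM in *Eed-cKO*. Of the 9 *Eed-cKO* embryos, 8 lay below every control embryo, and the groups overlapped through 1 embryo. The log2 fold change was -1.33 (SE 0.30), a 2.52-fold lower level (edgeR, adjusted p = 0.00249). The control embryos themselves were spread widely for this gene, with control embryos 5 and 6 at 49.9 and 32.5 CPM above the other 4 at 11.8 to 21.7 CPM.

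*Ddc* ran from 22.1 through a median of 34.6 to 47.4 CPM in control embryos and from 13.2 through 16.7 to 24.1 CPM in *Eed-cKO*. Again 8 of 9 *Eed-cKO* embryos lay below all controls. The log2 fold change was -0.95 (SE 0.16, 1.93-fold, edgeR adjusted p = 0.000133).

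*Slc18a2*, the vesicle transporter that dopamine and histamine neurons share, ranged from 32.3 to 46.3 CPM in control embryos with a median of 41.9, and from 15.8 to 33.2 CPM in *Eed-cKO* with a median of 23.3. The groups overlapped only through the lowest control embryo and the highest *Eed-cKO* embryo. The log2 fold change was -0.77 (SE 0.13, 1.71-fold, edgeR adjusted p = 0.000114).

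*Slc6a3* had 509 UMIs in all control neural cells and 59 in *Eed-cKO*. Per embryo it was at 2.96, a median of 14.7 and at most 28.5 CPM in controls, against 0, 0.989 and 7.13 CPM in *Eed-cKO*, where 2 embryos had no UMI. With the looser filter the log2 fold change was -2.98 (SE 0.50, 7.86-fold, edgeR adjusted p = 0.000131). The highest *Eed-cKO* embryo, replicate 1, had 30 of the 59 UMIs, and 25 of these came from 1 cell.

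*Gch1* was at 5.52, 7.87 and 11.4 CPM (lowest, median and highest) in control embryos and at 2.46, 7.82 and 9.03 CPM in *Eed-cKO*. The medians lay close together, with a log2 difference of -0.28 (SE 0.21, edgeR adjusted p = 0.359). *Hdc* was at 4.63, 6.29 and 22.1 CPM in controls and at 2.97, 10.9 and 20.4 CPM in *Eed-cKO*, a log2 difference of 0.40 (SE 0.32, edgeR adjusted p = 0.378). The 22.1 CPM came from control embryo 1, and without it the *Hdc* difference was 0.90 (edgeR adjusted p = 0.0121). None of the 6 genes had groups that did not overlap, which among all genes tested occurred with *Eed-cKO* lower for 2.66% and with *Eed-cKO* higher for 4.03%.

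**Figure D1:**
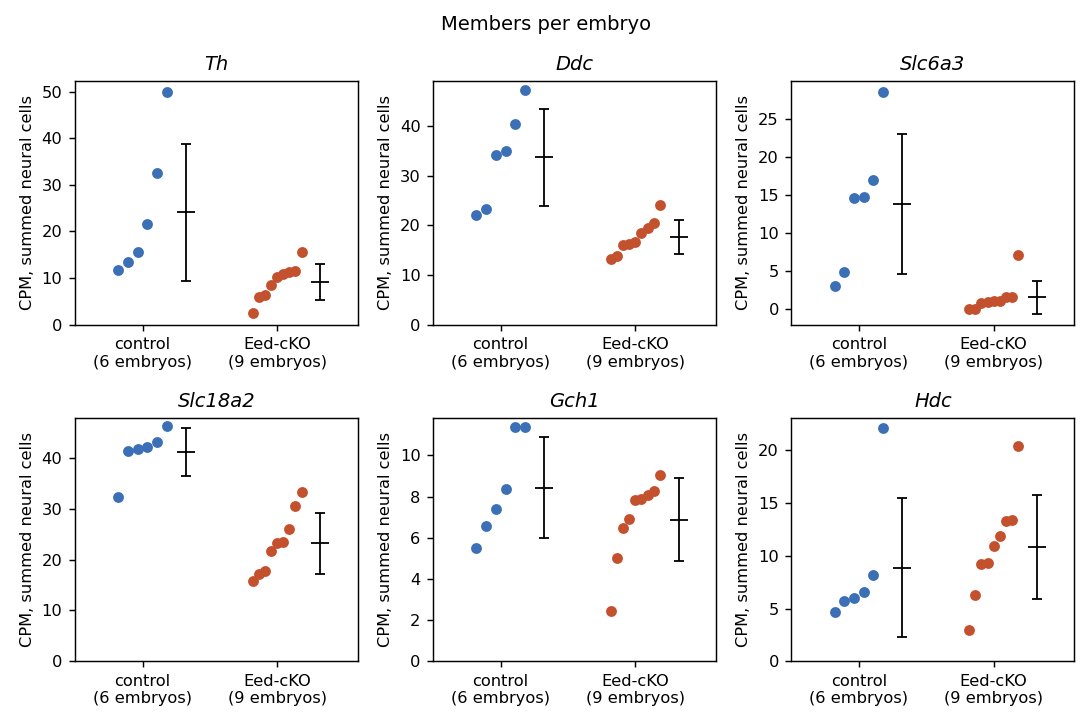
Each panel plots 1 gene, with CPM in the summed neural cells on the y axis and a point for each embryo (6 control, 9 *Eed-cKO*). The *Eed-cKO* points for *Th*, *Ddc*, *Slc18a2* and *Slc6a3* lie below those of the controls with 1 embryo overlapping, while *Gch1* and *Hdc* overlap more widely and *Hdc* has 1 control embryo at 22.1 CPM.

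The same 4 genes were lower when only neuron-like cells were summed. The log2 fold changes were -1.31 for *Th* (SE 0.29, edgeR adjusted p = 0.00230), -0.82 for *Ddc* (SE 0.16, 0.000800), -0.64 for *Slc18a2* (SE 0.13, 0.000914) and, with the looser filter, -2.80 for *Slc6a3* (SE 0.48, 0.000184). *Gch1* (-0.32, adjusted p = 0.278) and *Hdc* (0.28, adjusted p = 0.602) did not pass. In neuron-like cells 18.3% of 11971 genes passed the test, 8.5% with a lower level, and with the looser filter 17.2% of 15279, 7.8% lower. Marker sums of most other cell types had a higher median in *Eed-cKO* neural cells, with no test made. Medians for oligodendrocyte precursor (105 CPM in control, 102 CPM in *Eed-cKO*) and mast cell markers (66.7 and 55.4 CPM) were not higher. The astrocyte ranges overlapped widely. The 6 endothelial markers summed to 16.3 to 43.1 CPM in controls and 31.5 to 70.2 CPM in *Eed-cKO*, the 7 astrocyte markers to 589.1 to 1840 and 788 to 1827 CPM, and the 4 measured pituitary markers to 58.0 to 93.7 and 142 to 234 CPM. Their part in the neural values was not tested, and the neuron-like values are those given above.

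The share of cells in which a gene was found was compared at matched depth, since deeper cells show more genes. Each neural cell with at least 2000 UMIs was reduced to 2000 UMIs by a random draw, which kept 5608 control and 5439 *Eed-cKO* cells and left out 1231 and 1015 shallower ones. The share of cells with *Th* was at 1.40% in the lowest control embryo, a median of 2.36% and at most 4.27%, against 0.494%, 1.49% and 2.15% in *Eed-cKO*. The mean fell from 2.71% to 1.37% (exact permutation test over the 5005 splits of the embryos, two-sided, p adjusted over the 6 genes = 0.0180). The mean share with *Ddc* fell from 4.55% to 2.89% (exact permutation, adjusted p = 0.00360), with *Slc6a3* from 0.549% to 0.244% (0.0432) and with *Slc18a2* from 5.15% to 4.01% (0.0489). *Gch1* was found in 1.43% and 1.06% of cells (adjusted p = 0.0976) and *Hdc* in 0.937% and 1.25% (0.250). Without any thinning the mean shares were 3.83% and 2.57% for *Th*, 8.46% and 5.08% for *Ddc*, 0.866% and 0.401% for *Slc6a3*, and 9.82% and 7.02% for *Slc18a2*. The calls for *Slc6a3* and *Slc18a2* were close to the threshold and were lost in 10 and 12 of 15 fits that each left out 1 embryo, while that for *Ddc* held in all 15. That for *Th* was lost without control embryo 5 (exact permutation, adjusted p = 0.0554), at 4000 UMIs (0.132) and without thinning (0.0679). The call for *Slc6a3* was also lost at 1000 UMIs (exact permutation, adjusted p = 0.0518) and with likely doublets removed (0.0845), and that for *Slc18a2* in neuron-like cells only (0.0935). With the share expected over all possible draws in place of the single draw, the same 4 genes passed. Means were then 0.544% and 0.157% for *Slc6a3* (exact permutation, adjusted p = 0.00180) and 5.46% and 3.86% for *Slc18a2* (0.00999). *Gch1* was at 1.34% and 1.26% (exact permutation, adjusted p = 0.597). Fits that left out 1 embryo were made on the single draw only. For reading these counts, the test was run in a separate draw on the 14308 genes found in at least 15 cells, and 9.72% had a lower share in *Eed-cKO* at an unadjusted p under 0.05. In that draw 4 of the 6 genes were among them, the same 4 as above. *Hdc* had 0.789% and 1.37% there, a higher share in *Eed-cKO* at an unadjusted p of 0.0338 (exact permutation). Every *Eed-cKO* embryo lay below every control embryo for 1.24% of the genes and for none of the 6.

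Cells outside the neural lineage give a level against which such shares can be read, since RNA that leaks into the droplets is counted there too. At 2000 UMIs *Th* was found in 4 of 263 non-neural control cells, a share of 1.52% (exact 95% interval 0.416 to 3.85%, counting error only), and in 0 of 361 non-neural *Eed-cKO* cells, which allows a share of up to 0.831%. The median depth was 3946 and 3708 UMIs in these non-neural cells, against 4768 and 4425 UMIs in the neural cells. The control neural share with *Th* lay within that control interval, while the mean *Eed-cKO* neural share of 1.37% lay above 0.831%. In the shares and pairs a single UMI counted as found, and the part of leaked RNA in them was not tested. At 2 or more UMIs, before thinning, *Th* was found in 146 of 6839 neural and 2 of 347 non-neural control cells. *Slc6a3* was found in none of 263 and 361 non-neural cells at matched depth, which allows up to 1.14% and 0.831%. For *Gch1*, non-neural control cells other than the endothelial-like ones gave 0.714% (interval 0.0181 to 3.92%), an interval that contains the neural shares.

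Cells that held a pair of dopamine genes were rarer in *Eed-cKO* for several pairs. Of the 15 pairs tested, 7 passed the test, all with a lower mean share in *Eed-cKO*. As a background, each of the 6 genes was paired with every other gene in the separate draw. Of the 31566 pairs found in at least 15 cells, 24.9% were lower in *Eed-cKO* at an unadjusted p under 0.05, and every *Eed-cKO* embryo lay below every control embryo for 0.684%. Only 6 of the 15 pairs reached 15 cells there, of which 5 were lower and 1 did not overlap. These pairs share the 6 genes, so that a lower share of 1 gene alone lowers its pairs. *Th* and *Ddc* occurred together in 36 of 5608 control and 6 of 5439 *Eed-cKO* neural cells at 2000 UMIs. Per embryo this pair was at 0, a median of 0.503% and at most 1.42% in controls, against 0, 0 and 0.327% in *Eed-cKO*, and the means were 0.607% and 0.0972% (exact permutation, p adjusted over the 15 pairs = 0.00899).

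*Th* and *Slc6a3* occurred together in every control embryo, in 16 cells at 0.108% to 0.444%, and in none of the 5439 *Eed-cKO* cells (exact permutation, adjusted p = 0.00150), which allows a share of up to 0.0552%. *Th* and *Slc18a2*, a synthesis enzyme with the vesicle transporter, occurred together in 41 control cells at 0.324% to 1.32% per embryo and in 2 *Eed-cKO* cells (exact permutation, adjusted p = 0.00150). These 2 pairs did not overlap between the groups.

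The other 4 pairs that passed all held *Ddc* or *Slc6a3*. The mean share fell from 0.301% to 0.0469% for *Ddc* with *Slc6a3* (exact permutation, adjusted p = 0.00420), from 0.879% to 0.320% for *Ddc* with *Slc18a2* (0.00420), from 0.274% to 0.0569% for *Ddc* with *Gch1* (0.00899) and from 0.242% to 0.0171% for *Slc6a3* with *Slc18a2* (0.00300). No pair with *Hdc* passed. *Hdc* and *Slc6a3* were never in the same cell in either genotype, thinned or not. When the share expected over all possible draws replaced the single draw, 10 pairs passed, the 3 added ones being *Gch1* with *Th* (adjusted p = 0.0140), with *Slc6a3* (0.0105) and with *Slc18a2* (0.00642), all by exact permutation. In a second draw the call for *Ddc* with *Gch1* was lost (exact permutation, adjusted p = 0.151), as it was at 2 or more UMIs without thinning (0.0939). The call for *Th* with *Ddc* was lost with litters as samples (exact permutation, adjusted p = 0.133).

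**Figure D2:**
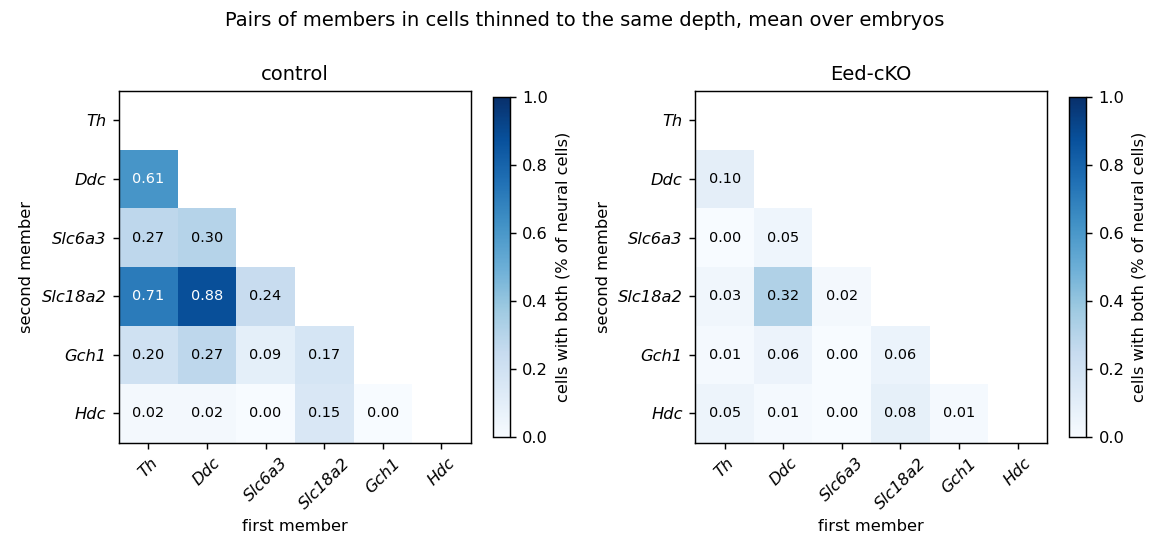
The 2 panels show, for control and *Eed-cKO*, the mean over embryos of the share of neural cells with both genes of a pair (percent, colour and number) in cells thinned to 2000 UMIs. *Th* with *Slc18a2* goes from 0.708% in control to 0.0333% in *Eed-cKO*, and *Th* with *Ddc* from 0.607% to 0.0972%. The highest square with *Hdc* is that with *Slc18a2*, at 0.149% in control and 0.0834% in *Eed-cKO*.

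The more *Th* UMIs a control cell had, the more often it held the other dopamine genes. Among 6569 control neural cells without *Th*, 500 (7.61%) had a *Ddc* UMI. The share was 26 of 124 cells (20.97%) with 1 *Th* UMI, 24 of 94 (25.5%) with 2 to 4 and 32 of 52 (61.5%) with 5 or more. *Slc18a2* went from 8.84% of cells without *Th* to 67.3% of those with 5 or more, *Slc6a3* from 0.548% to 30.8% and *Gch1* from 2.72% to 38.5%. *Hdc* showed no such order, with 1.203% of cells without *Th*, 4 of 124 (3.23%) with 1 *Th* UMI, 1 of 94 (1.06%) with 2 to 4 and none of 52 with 5 or more. These cells were not thinned, and the median depth was 4710 UMIs without *Th* and 8429.5 UMIs with 5 or more. The part of depth in these shares was not tested.

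In *Eed-cKO* only 13 cells had 5 or more *Th* UMIs, against 52 in control. Of these 13, 6 had *Ddc*, 5 had *Slc18a2*, 2 had *Gch1* and none had *Slc6a3*. The median depth was 10319 UMIs, no lower than in the control cells. The highest count of *Th* in a cell was 45 UMIs in control and 9 in *Eed-cKO*. No test was made between these groups of cells, which share embryos and libraries.

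**Figure D3:**
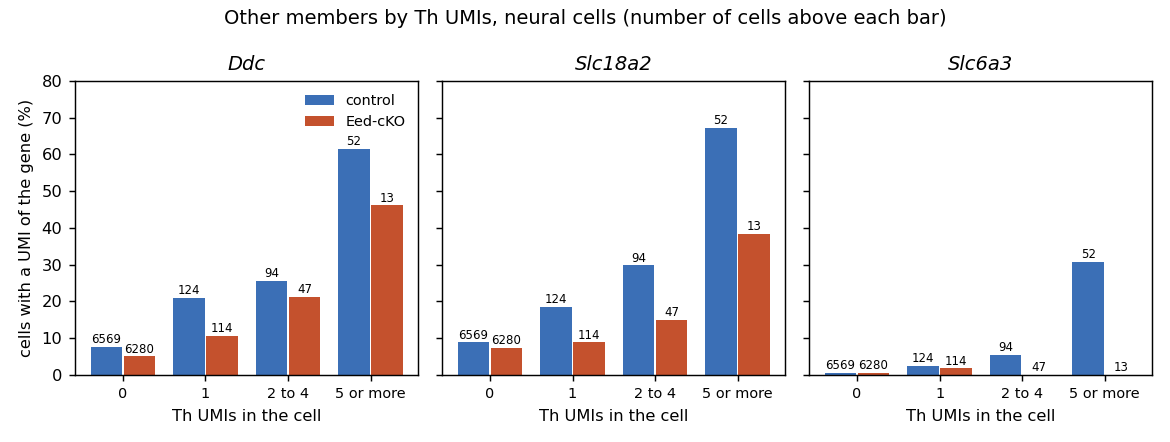
The panels show the percent of neural cells with a UMI of *Ddc*, *Slc18a2* and *Slc6a3* (y axis) by the number of *Th* UMIs in the cell (x axis). Bars stand for control and *Eed-cKO*, with the number of cells above each bar. Control bars for *Ddc* climb from 7.61% to 61.5%, and *Slc6a3* stands at 30.8% of 52 control cells and at 0 of 13 *Eed-cKO* cells in the highest class.

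*Slc6a3* was held by few cells. In control, 60 neural cells had a UMI of it, and 18 of these with 5 or more UMIs contained 462 of the 509 UMIs (90.8%). The 18 cells came from all 6 control embryos, 1 to 5 per embryo. The same 18 cells held 26.4% of all control *Th* UMIs and 13.3% of the *Ddc* UMIs. All 18 had *Th* and *Ddc*, 16 had *Slc18a2*, 13 had *Gch1* and none had *Hdc*. In *Eed-cKO*, 29 cells had a *Slc6a3* UMI and 1 cell had 5 or more. That cell had 25 *Slc6a3*, 14 *Ddc*, 6 *Slc18a2* and 2 *Gch1* UMIs, but 1 *Th* UMI.

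The 18 control cells also held genes that are known from dopamine neurons of the midbrain. *Pitx3* was found in 13, *En1* in 14, *En2* in 13, *Nr4a2* in 16, *Foxa1* in 16, and *Foxa2* and *Lmx1a* in only 9 each. *Aldh1a1*, an aldehyde dehydrogenase of a subset of midbrain dopamine neurons, was found in 14. The 18 cells held 1428 of the 1522 control *Aldh1a1* UMIs. None had *Dlx1* or *Sim1*, the only factors of hypothalamic dopamine groups examined in these cells. Their median depth was 11481.5 UMIs. Whether they lay inside the hypothalamus or came with tissue next to it was not tested.

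Most of these cells fell into 2 finer clusters of neuron-like cells, the only ones with *Pitx3* above 10 CPM, which led with *Nr4a2*, *C1ql1*, *Ebf2* and *Lmx1a*. These finer clusters held 296 control and 102 *Eed-cKO* cells, which was 2.76% to 5.64% of the neural cells of a control embryo (median 4.28%) and 0.443% to 3.85% of an *Eed-cKO* embryo (median 1.37%). Leaving them out, an alternative added after the values were seen, changed the result for *Slc6a3*. Its log2 difference was then -1.04 in neural cells (edgeR, adjusted p = 0.111) and -0.21 in neuron-like cells (adjusted p = 0.775). The calls for *Th*, *Ddc* and *Slc18a2* held without them. At matched depth, 1 pair instead of 7 then passed, *Th* with *Slc18a2*, and 2 single genes instead of 4.

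Control cells with both *Th* and *Ddc* had, as a sum, more RNA of *Slc18a2*, *Slc6a3* and *Gch1*. The 82 such cells were compared with 6069 cells with neither within the 6 control embryos (edgeR quasi-likelihood test with the embryo as a term). Of 14454 genes tested, 2.12% passed, 0.858% with a higher level, and 3 of the 4 other members were among the higher ones. *Slc18a2* was at 181 to 781 CPM in the cells with both and at 23.5 to 33.7 CPM in those with neither, with no overlap (log2 difference 3.71, SE 0.19). *Slc6a3* was at 167 to 1561 CPM against 0.668 to 1.71 CPM (9.19, SE 0.23). *Gch1* was at 18.3 to 276 CPM against 4.68 to 6.46 CPM (4.11, SE 0.43, edgeR adjusted p = 7.45e-19). All 3 were higher in 6 of 6 embryos. Before thinning, 24 control neural cells held *Th* with *Slc6a3* and 36 held *Th* with *Gch1*, so these sums do not describe each of the 82 cells. *Hdc* had no UMI in the 82 cells and 286 in the others (edgeR adjusted p = 0.106). The median depth was 7054 UMIs with both genes and 4584 with neither, and in cells thinned to 2000 UMIs the call for *Gch1* was lost (adjusted p = 0.164).

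Without the 2 finer clusters with *Pitx3*, 55 cells with *Th* and *Ddc* in 5 control embryos entered the comparison. *Slc18a2* (log2 difference 3.27, edgeR adjusted p = 1.47e-29) and *Gch1* (2.91, 0.000107) were still higher in them, and *Slc6a3* was not (2.07, 0.676). Of the hypothalamic factors, *Dlx1* (1.46), *Dlx2* (1.305), *Onecut2* (0.94), *Onecut3* (3.01), *Meis2* (1.75) and *Isl1* (1.02) were higher by this test, on the log2 scale.

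In the 9 *Eed-cKO* embryos 28 cells had both *Th* and *Ddc*. Only 3 embryos had at least 5 such cells, and their 18 cells entered the test, at a median depth of 8104 UMIs against 4434 in the cells with neither. None of the 4 other members passed there, where 0.869% of 13809 genes did. *Slc18a2* had 6 UMIs in these 18 cells (log2 difference 0.82, SE 0.85, edgeR adjusted p = 0.911), *Gch1* had 8 (2.83, SE 0.97, 0.213) and *Slc6a3* and *Hdc* had none. The *Eed-cKO* cell with 25 *Slc6a3* UMIs lay in an embryo that did not enter. *Dlx1* was higher in the 18 cells too (2.00, edgeR adjusted p = 7.54e-08). The difference between the genotypes in these within-embryo contrasts was not tested.

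Among the kinds of cell, *Ddc* had its highest level in endothelial-like cells. These non-neural vessel cells are not a target of *Sox1-Cre*. In the 13 embryos with at least 5 such cells *Ddc* was at 20.98 CPM in the lowest, a median of 64.2 and 130 CPM in the highest, against 14.6, 24.1 and 50.2 CPM in the neuron-like cells of the same embryos. The endothelial-like level was higher in 11 of 13 embryos, by 33.1 CPM on average (SD 30.4, exact sign-flip permutation test within embryos, two-sided, p adjusted over 7 kinds = 0.00456). With the genotypes apart, it was higher in 4 of 6 control embryos (same test, unadjusted p = 0.125) and in 7 of 7 *Eed-cKO* embryos (0.0156). At 2000 UMIs, *Ddc* was found in 14.6% of endothelial-like control cells (exact 95% interval 8.91 to 22.1%) and 13.3% of *Eed-cKO* ones (7.26 to 21.6%), at median depths of 4605 and 4617 UMIs, against 0.714% (0.0181 to 3.92%) of the other non-neural control cells.

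In each of the other 6 kinds *Ddc* was lower than in neuron-like cells. The mean difference was -23.1 CPM in astrocyte-like cells (lower in 14 of 15 embryos, exact permutation, adjusted p = 0.000427), -23.5 in cycling progenitor-like (0.000427), -22.9 in pericyte or smooth muscle-like (0.00342), -22.1 in microglia or macrophage-like (0.0156), -18.8 in unnamed (0.00342) and -18.4 CPM in vascular leptomeningeal-like cells (0.00228). These 6 medians lay between 0 and 1.58 CPM and were not ordered among themselves. Ependymal-like cells had too few embryos for the test, with 2 *Ddc* UMIs in 41 control cells and none in 45 *Eed-cKO* cells.

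A difference of endothelial-like *Ddc* between the genotypes was not detected. The level was 66.8 ± 38.6 CPM (SD, n = 6) in control and 55.3 ± 26.3 CPM (SD, n = 7) in *Eed-cKO*, and the means differed by less than this spread (exact permutation test, p = 0.548). The excess over neuron-like cells was 31.5 CPM in control and 34.4 CPM in *Eed-cKO* embryos (difference 2.89 CPM, exact permutation over 1716 splits, p = 0.871). Neither value shows that the genotypes were alike in these cells.

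*Gch1* was likewise high in endothelial-like cells, in which its cofactor is known to serve nitric oxide synthase. It was at 83.4 CPM in the lowest embryo, a median of 124 and 219 CPM in the highest, against a median of 7.71 CPM in neuron-like cells, and was higher in 13 of 13 embryos (mean difference 132 CPM, SD 47.3, exact permutation, adjusted p = 0.00142 over the 35 tests of the other 5 genes, which were added after the values were seen). In the same cells *Th* had 8 UMIs in 150 control and none in 123 *Eed-cKO* cells, and *Slc6a3* had none in either. The endothelial-like *Gch1* means were 119 ± 36.5 CPM (SD, n = 6) in control and 157 ± 49.6 CPM (SD, n = 7) in *Eed-cKO* (exact permutation, p = 0.133).

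**Figure D4:**
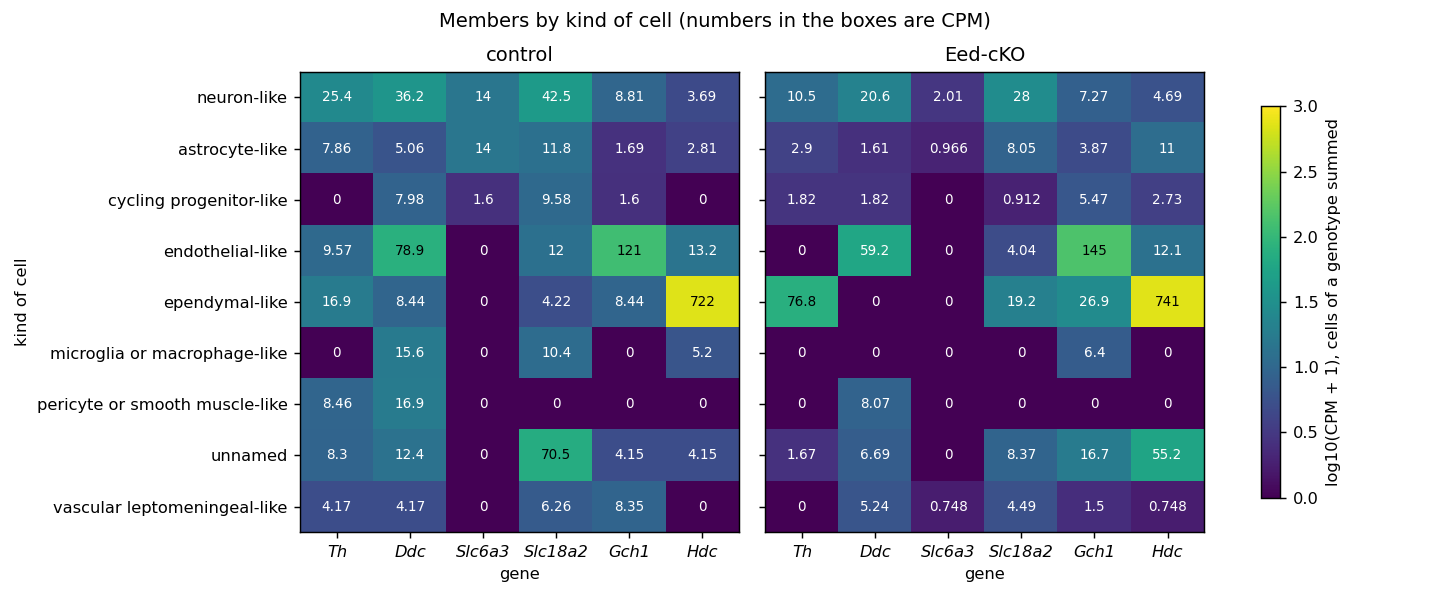
For each kind of cell (rows) and gene (columns), colour shows log10(CPM + 1) with the cells of a genotype summed, and the number in each box is the CPM. *Ddc* stands at 78.9 CPM in control endothelial-like cells and 36.2 CPM in neuron-like cells, *Gch1* at 121 CPM and *Hdc* at 722 CPM in the endothelial-like and ependymal-like rows.

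*Hdc* had its highest level in ependymal-like cells, the ciliated cells that line the ventricle. These were 41 control and 45 *Eed-cKO* cells, named from cilia genes such as *Foxj1* and *Ccdc153*. Summed over embryos *Hdc* was at 722 CPM (exact Poisson 95% interval 618 to 839) in control and 741 CPM (640 to 854) in *Eed-cKO*, and at 3.69 and 4.69 CPM in neuron-like cells. *Hdc* was seen in 34 of 41 control and 33 of 45 *Eed-cKO* ependymal-like cells. They held 171 of the 305 *Hdc* UMIs of control neural cells (56.1%) and 193 of 394 in *Eed-cKO* (49.0%). Only 5 control and 7 *Eed-cKO* embryos had ependymal-like cells, and 2 and 3 had at least 5, too few for a test between the genotypes.

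In the embryo of each genotype with the most ependymal-like cells, these cells held most of the *Hdc* UMIs. Control embryo 1 had 112 *Hdc* UMIs in all, 93 of them in 19 ependymal-like cells. *Eed-cKO* embryo 1 had 86, of which 69 were in 16 such cells. Other embryos did not follow the number of these cells, since control embryo 5 had 38 *Hdc* UMIs with 11 such cells and control embryo 3 had 41 with none. Without the ependymal-like cluster, an alternative added after the values were seen, the *Hdc* difference in neural cells was 0.73 on the log2 scale (edgeR adjusted p = 0.0464), while in neuron-like cells alone it was 0.28 (adjusted p = 0.602). The remaining neural cells include astrocyte-like cells. Their *Hdc* was at 10.95 CPM (34 UMIs, interval 7.59 to 15.3) in *Eed-cKO* and 2.81 CPM (5 UMIs, 0.912 to 6.55) in control. The remaining cells also include unnamed *Eed-cKO* cells at 55.2 CPM of *Hdc* (33 UMIs, interval 38.01 to 77.6). Of these, a finer cluster of 46 cells, all *Eed-cKO*, that led with *Ttr* and *Kcne2*, genes of the choroid plexus, was at 66.6 CPM.

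A small group of neuron-like cells paired *Hdc* with the vesicle transporter, as histamine neurons do. Finer cluster 52, which led with *Wif1*, *Sstr1* and *Slc35d3*, had 46 control and 52 *Eed-cKO* cells and held 20.3% of all neural *Hdc* UMIs. Here *Hdc* was at 413 CPM in control and 223 CPM in *Eed-cKO*, and *Slc18a2* at 557 and 294 CPM. *Slc6a3* had no UMI in this cluster and *Th* had 4. The mast cell genes that would mark the other known source of histamine were not analysed here except for *Kit*, which neurons also express.

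Cells with *Hdc* were set against the other neural cells within embryos. In control, 84 cells with *Hdc* were compared with 6755 without, and 16% of the 14632 genes tested passed, 7.51% higher and 8.5% lower in the *Hdc* cells. *Slc18a2* was higher in the *Hdc* cells in 5 of 6 embryos (92 UMIs, log2 difference 2.08, SE 0.28, edgeR adjusted p = 1.38e-11). *Ddc* was lower (3 UMIs, -2.57, SE 0.74, 0.00549), and *Slc6a3* had no UMI in them against 509 in the others (adjusted p = 0.0173).

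In *Eed-cKO*, 140 *Hdc* cells from 8 embryos entered, and 26% of 15051 genes passed, 12.3% higher and 13.7% lower. *Slc18a2* was higher (log2 difference 1.42, SE 0.31, edgeR adjusted p = 0.000107), *Ddc* was lower (-1.56, SE 0.60, 0.0425) and *Th* was higher (1.27, SE 0.48, 0.0379). The *Th* value turned to -0.48 (adjusted p = 0.888) in neuron-like cells only. In ependymal-like cells *Th* had 20 UMIs in 9 of 45 *Eed-cKO* cells, 76.8 CPM (46.9 to 119), and 4 UMIs in 4 of 41 control cells, 16.9 CPM (4.602 to 43.2). With only the neuron-like cells, *Slc18a2* was the 1 member that still passed in each genotype.

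The dopamine genes were spread over several neuron-like groups. Finer cluster 11, led by *Sp8*, had 243 control and 58 *Eed-cKO* cells and held 23.6% of neural *Ddc* UMIs. In it *Ddc* was at 170 CPM in control and 218 CPM in *Eed-cKO*, and *Th* at 66.2 and 133 CPM, so that the *Eed-cKO* cells were fewer but not at a lower pooled level.

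Finer cluster 14, the larger of the 2 with *Pitx3*, had 220 control and 70 *Eed-cKO* cells. It held 79.6% of all neural *Slc6a3* UMIs and 22.7% of the *Th* UMIs. Between control and *Eed-cKO*, *Slc6a3* was at 212 and 45.5 CPM, *Th* at 129 and 32.8 CPM, and *Ddc* at 100 and 47.3 CPM. Both the number of cells and these pooled levels were lower in *Eed-cKO*. The *Eed-cKO* level of *Slc6a3* here came from 1 cell with 25 UMIs, which also had 14 *Ddc* UMIs, so it is not a level shared by the 70 cells.

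Finer cluster 37, led by *Gal*, *Oprk1* and *Dlx1*, had *Th* at 147 CPM in control and 39.4 CPM in *Eed-cKO* and *Slc18a2* at 150 and 17.5 CPM, while *Ddc* was at 17.3 and 13.1 CPM. These cells had the hydroxylase with little of the decarboxylase. Finer cluster 39, led by *Onecut2*, *Enpp1* and *Foxb1*, was the reverse case for the transporter, with *Slc18a2* at 270 CPM in control and 282 CPM in *Eed-cKO* and no *Th*, *Slc6a3* or *Hdc* UMI. Finer cluster 40, led by *Six6*, *Penk* and *Bcl11b*, had 143 control and 18 *Eed-cKO* cells, with *Slc18a2* at 207 CPM and *Ddc* at 95.7 CPM in control. All values by finer cluster are descriptions of pooled cells with no test.

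**Figure D5:**
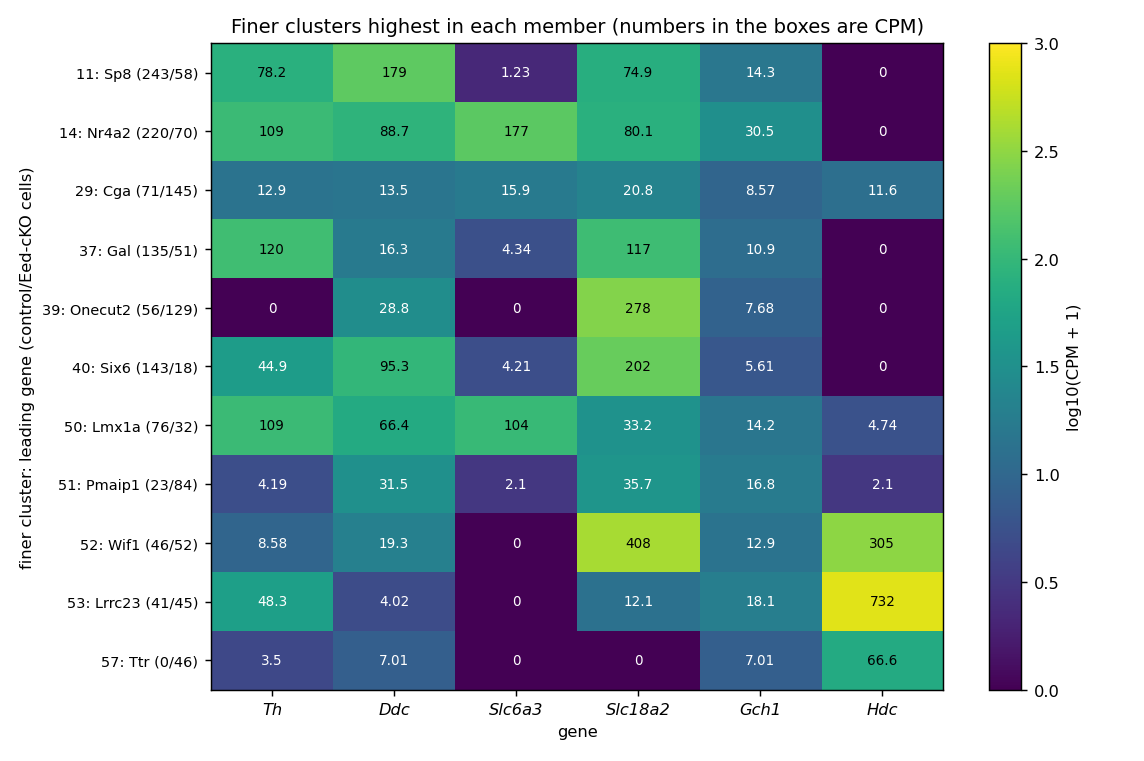
Each row is a finer cluster of neural cells with its leading gene and its number of control and *Eed-cKO* cells, and each column a gene, with colour as log10(CPM + 1) over both genotypes and the CPM written in each box. The 11 clusters are those among the 3 highest for any gene. *Slc6a3* is high in clusters 14 (177 CPM) and 50 (104 CPM), *Hdc* in 53 (732 CPM) and 52 (305 CPM), and *Ddc* is highest in 11 (179 CPM).

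Across the 61 finer clusters of neural cells the gene most like *Slc6a3* was *Aldh1a1* (Pearson r of log2(CPM + 10) = 0.89), followed by *Ebf2* (0.58). For *Hdc* they were *Tmem53* (0.78), *Efcab10* (0.77) and *1700001C02Rik* (0.77). For *Th* the list began with *BC048546* (0.55) and then *Slc6a3* (0.53), for *Ddc* with *Dync1i1* (0.63), for *Slc18a2* with *Smc2os* (0.62) and for *Gch1* with *Pcbd1* (0.51), which takes part in recycling the same cofactor. Among the members themselves *Th* and *Ddc* had r = 0.50, *Ddc* and *Slc18a2* 0.47, and *Th* and *Hdc* 0.09. These are descriptions over clusters that share libraries and differ in depth.

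The other genes of the pathway were taken from lists set by function, 46 of whose 57 genes were in the table. Over all genes tested in neural cells, 12.4% passed as lower and 15.3% as higher. Of the genes of cofactor synthesis and recycling, *Spr* was higher in *Eed-cKO* neural cells (log2 fold change 0.31, edgeR adjusted p = 0.0352) and *Pcbd1* was lower (-0.32, 0.0147). Of the genes that break down monoamines or their products, *Maoa* (-0.56, edgeR adjusted p = 0.000331), the histamine methyltransferase *Hnmt* (-0.49, 0.0235) and *Aldh1a1* (-5.01) were lower, and none was higher. *Aldh1a1* was at 2.88 to 80.1 CPM in control embryos and at 0 to 2.46 CPM in *Eed-cKO*, without overlap.

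Of the receptors, *Drd1* was lower (-0.76, edgeR adjusted p = 0.0193), and *Hrh1* and *Hrh3* did not pass. Of the 6 factors known from midbrain dopamine neurons that passed the filter none was lower, and *En1* (1.21, 0.00986), *En2* (2.15) and *Foxa2* (0.77, 0.0108) were higher. *Pitx3*, which only the looser filter kept, had a log2 difference of -0.84 (edgeR adjusted p = 0.214), with 7 of 9 *Eed-cKO* embryos below every control embryo. *En2* rose from at most 4.04 CPM in control embryos to at least 4.74 CPM in *Eed-cKO*. Of the hypothalamic factors, *Dlx1* (-1.06) and *Arnt2* (-0.37) were lower and *Onecut2* (0.81) was higher, each by the edgeR test. *Gata2* (3.25) and *Gata3* (2.63), listed as factors of serotonin neurons and also known from other neurons, and *Pnmt* (1.46), the enzyme that makes adrenaline, were higher, and *Kit* (-0.41) was lower.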

How the data were processed

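The deposited table holds whole-number UMI counts per gene and cell, made by the authors with the SureCell RNA Single-Cell pipeline (STAR 2.5.2b, SAMtools 1.3 and mm10 per the submitters' processing notes) and filtered by the authors to cells of good quality, the shallowest at 601 UMIs. Droplet counts cover the 3′ end. Samples are the 15 embryos, whose 48 libraries were summed, and embryo numbers follow accession order. Nothing in the labels pools hypothalami.

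Clusters came from the Leiden method (scanpy 1.11.5, leidenalg 0.10.2, 2000 variable genes without the 6 members, 30 components, 15 neighbours, resolution 1, and 4 for finer clusters). A cluster was named where at least 3 markers were raised at least 2-fold in at least 10% of its cells. Cluster 10, with 7 neuron markers raised, and cluster 23, with 4 ependymal markers raised, met this but stayed unnamed for low depth or mixed markers. Neuron-like cluster 2, at a median of 1238.5 UMIs, kept its name. Neuron-like clusters were named against the cells of clusters named first, a comparison changed after the data were seen. Doublets were not removed. Removing the 6% of cells with the highest doublet score was an alternative.

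Summed counts were tested with edgeR 4.0.16 in R 4.3.3 (TMM, quasi-likelihood), on genes with at least 15 counts, at least 2 in 1 embryo and a median log2 CPM of at least 1.5. The total-count filter alone served for *Slc6a3*. Shares were compared by exact permutation over embryos with numpy 2.4.6 and scipy 1.17.1, with calls at a false discovery rate of 0.05. The same test over all genes, and over pairs of a member with any gene, was added after the data were seen. The members, lists and tests were chosen with earlier results of these data known. All 6 members are described, with the list genes past the threshold (some list genes are not reported here) and, by likeness, the 3 genes of highest correlation (at least 200 UMIs, clusters of at least 20 cells). Alternatives were DESeq2 1.42.0, limma 3.58.1 (voom with TREAT), library size scaling, other depths, libraries or litters as samples, sex as a covariate and leaving out each embryo. Scripts were tested on simulated data. Intervals cover counting error only. p-values measure the spread between these embryos.

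Genes of the lists that lack a row (*Drd2*, *Drd3*, *Hrh4*, *Dbh*, *Lmx1b*, *Cpa3*, *Cma1*, *Mcpt4*, *Tpsb2* and *Ms4a2* among them) were not analysed here.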

Additional observations from a re-analysis of the deposited data

Results flagged for a closer look

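Among the per-embryo levels of the 6 genes, 4 values from 2 embryos stood apart from the rest of their group by Dixon's test, which chance alone meets in about 1 in 20 groups, and 24 groups were tested. *Slc6a3* was at 7.13 CPM in the neural cells of *Eed-cKO* embryo 1, the highest of 9, and at 8.60 CPM in its neuron-like cells, with 25 of its 30 UMIs in 1 cell. *Hdc* was at 22.1 CPM in the neural cells of control embryo 1, the highest of 6, with 93 of its 112 UMIs in 19 ependymal-like cells. *Slc18a2* was at 32.3 CPM in the neural cells of the same control embryo, the lowest of 6.

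Without *Eed-cKO* embryo 1 the log2 fold change of *Slc6a3* was -3.80 in neural cells (edgeR adjusted p = 4.94e-06). Without control embryo 1 that of *Slc18a2* was -0.83 (edgeR adjusted p = 4.61e-05) and that of *Hdc* was 0.90 (edgeR adjusted p = 0.0121), the 1 member whose call changed.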

How the results depend on the processing

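In neural and neuron-like sums *Th*, *Ddc* and *Slc18a2* kept their direction and their call under every alternative run, and *Slc6a3* under every one but that without the finer clusters with *Pitx3*. Leaving out each embryo in turn gave log2 changes in neural cells of -1.48 to -0.99 for *Th*, -1.04 to -0.83 for *Ddc*, -3.80 to -2.63 for *Slc6a3* and -0.87 to -0.71 for *Slc18a2*, and 4 to 5 members called. The fifth was *Hdc*, without control embryo 1. Of 3474 genes called in neural cells, TREAT on embryos called 1493 and libraries as samples 5881. In neuron-like cells the 2196 became 693 and 4282, and 1214 with TREAT on libraries.

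Shares rested on thinner data. Of 4 single genes called, leaving out 1 embryo left 1 to 5, the lowest without control embryo 5, and leaving out the finer clusters with *Pitx3* left 2 and, of 7 pairs, 1. In pairs of *Slc18a2* and *Hdc* the difference turned to 0.0191 percentage points at 4000 UMIs and 0.0533 at 2 or more UMIs, in *Ddc* and *Hdc* to 0.0367 without thinning, 0.0057 with litters as samples and 0.0127 without control replicate 4 (without 1 embryo, -0.0174 to 0.0127), and in *Th* and *Hdc* to -0.02 in neuron-like cells, -0.0184 without the ependymal-like cluster and -0.0013 without *Eed-cKO* replicate 1 (without 1 embryo, -0.0013 to 0.0493). The *Gch1* share turned to 0.127 in a second draw, and its log2 difference in neural cells to 0.0235 without the finer clusters with *Pitx3*. None of these passed in either fit.

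Of 3 members called in *Hdc* cells of control, 0 passed thinned, 1 in neuron-like cells and 1 without the ependymal-like cluster. In *Eed-cKO*, 3 became 1 under each of these and 1 to 3 without an embryo (1 without replicates 1, 4 or 6), and in neuron-like cells *Th* turned to -0.48 and *Gch1* to -0.55. The genes called in these contrasts ranged from 199 to 2475 in control, where 2343 passed, and from 99 to 3916 in *Eed-cKO*. For *Th* and *Ddc* cells they ranged from 21 to 307 in control and from 41 to 120 in *Eed-cKO*, where the thinned fit was not run because no embryo had 5 such cells. The cause of these changes was not tested. Alternatives without the *Pitx3* clusters, the ependymal-like cluster, the largest library or the clusters of *Eed-cKO* cells, and other draws, were chosen after seeing the data. No paired analysis was possible because control and *Eed-cKO* embryos share numbers only through accession order.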
